A study of Anopheles gambiae with 36 samples.

Results

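This account covers the female ear of Anopheles gambiae as the laboratory night began, set out as the 3 female libraries collected at ZT16 against the 3 female libraries collected at ZT12. These 6 libraries were chosen by sex and time point from the labels, without use of any measured value, out of 36 in all. RNA was sequenced from second antennal segments, which house the auditory Johnston's organ (JO), of males and females at 6 zeitgeber times (ZT, hours since the start of simulated dawn). Both groups were females of the Kisumu strain, described as 3-5 days old in the reporting summary and as 3 to 7 days old in the methods, and kept in 12 h of light and 12 h of dark with ramped transitions, and the labels name no genetic or drug treatment. The ZT16 females were taken in the dark. The ZT12 females were taken at the start of the dusk ramp, which lasted until ZT13 and at which the study placed laboratory swarm time. Each library was a pool of segments from 35 mosquitoes taken on the fourth day of entrainment, so p-values measure the spread between pools.

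In this species males gather in swarms at dusk and find females by the sound of their wingbeats, and females, which also hear, turn to host seeking during the night. The JO is a chordotonal organ of mechanosensory neurons which in mosquitoes can receive efferent fibres that release octopamine, serotonin and GABA. The study describes this innervation as limited in females of this species. Receptors for transmitters and peptides, together with light, odour and taste receptors that the study listed, are described one family at a time after the transcripts that differed most.

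Of 15863 annotated transcripts, 12322 held enough counts to be tested. Under the quasi-likelihood F-test of edgeR with Benjamini-Hochberg adjustment, 3 transcripts differed at an adjusted p under 0.05 (0.0243% of those tested), and all 3 were lower at ZT16. None was higher (0%), where the smallest adjusted p was 0.149. At an unadjusted p under 0.05 there were 843 (6.84%), of which 261 were higher and 582 lower at ZT16. The 3 libraries of each time point did not overlap in 870 transcripts that were higher at ZT16 (7.06%) and in 1164 that were lower (9.45%), and 136 and 249 of these differed by more than 2-fold. The median log2 fold change over all tested transcripts was 0.01. DESeq2's Wald test on the same libraries called 78 transcripts, 17 higher and 61 lower, and the edgeR fit of the 6 libraries alone called 0, with 1023 at an unadjusted p under 0.05.

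**Figure D1:**
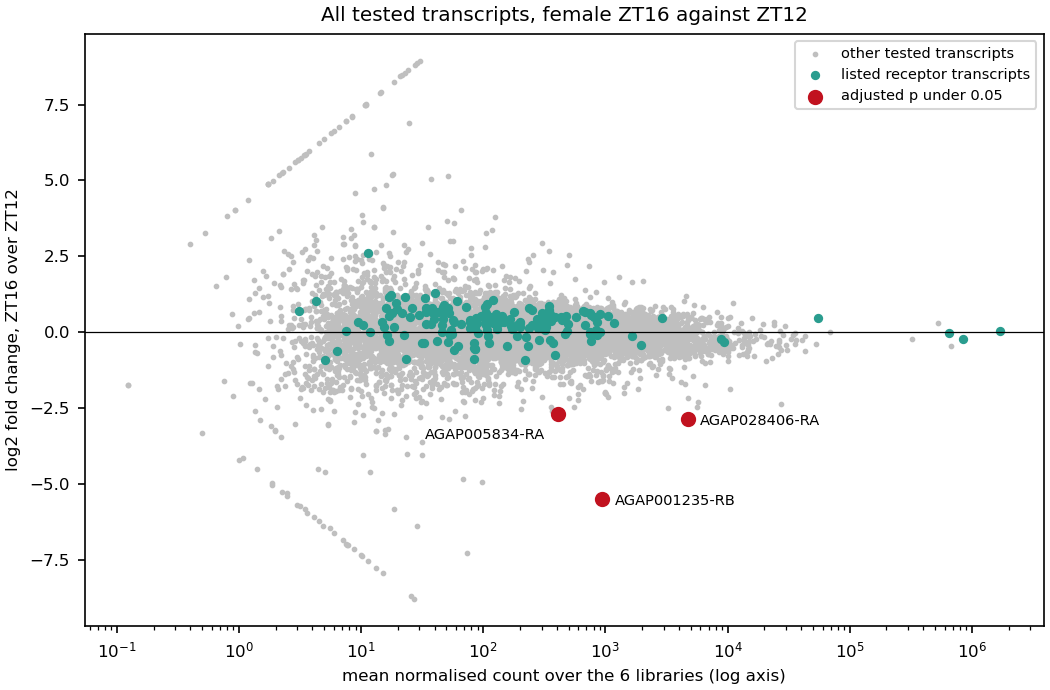
Log2 fold change of ZT16 over ZT12 (vertical axis) against the mean normalised count over the 6 female libraries (horizontal log axis), with 1 point per tested transcript. The 3 transcripts with an adjusted p under 0.05 all lie below 0, and the listed receptor transcripts hold none of them.

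The files, the study's lists and the reference table pair none of the 3 called transcripts with a gene name, so they are given by identifier and no role is stated. All values below are normalised counts, that is, estimated counts scaled to a common effective library size, and they compare a transcript between libraries but not 1 transcript with another. AGAP001235-RB had 15.7, 48.3 and 57.4 normalised counts in the ZT16 libraries, against 754, 3644 and 1148 in the ZT12 libraries. Every ZT16 library lay far below every ZT12 library, and ZT12 replicate 2 stood above the other two. The fall was 45.4-fold (log2 fold change -5.51, 95% interval -7.10 to -3.91, edgeR adjusted p = 0.0142). It remained called when any ZT12 library was left out, but not without ZT16 replicate 1, 2 or 3, where the adjusted p was 0.151, 0.184 and 0.0817.

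A second annotated transcript of the same gene, AGAP001235-RA, had 393, 314 and 245 normalised counts at ZT16 and 409, 892 and 488 at ZT12. Its groups did not overlap either, but it was not called (log2 fold change -0.91, 95% interval -1.62 to -0.20, edgeR adjusted p = 0.609). Kallisto divides reads between isoforms by estimation. With both summed, the gene was still called as lower at ZT16 (log2 fold change -2.77, adjusted p = 0.0302).

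AGAP028406-RA had 1357, 959 and 1117 normalised counts at ZT16, against 10557, 6240 and 8103 at ZT12. The 3 ZT16 libraries lay close together and none approached the ZT12 range. The fall was 7.25-fold (log2 fold change -2.86, 95% interval -3.80 to -1.91, edgeR adjusted p = 0.0441). This call was lost without any 1 of the 6 libraries, with adjusted p between 0.0585 without ZT12 replicate 2 and 0.432 without ZT16 replicate 2, while the log2 fold change stayed between -3.04 and -2.65.

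AGAP005834-RA had 104, 117 and 104 normalised counts at ZT16, against 835, 373 and 910 at ZT12. The ZT16 values were nearly equal, and the ZT12 values were more scattered, with replicate 2 the lowest. The fall was 6.51-fold (log2 fold change -2.70, 95% interval -3.46 to -1.95, edgeR adjusted p = 0.0142). It was lost without each library except ZT12 replicate 2, with adjusted p between 0.0629 and 0.184 and log2 fold changes between -2.76 and -2.48, whereas without ZT12 replicate 2 the log2 fold change was -3.03 (adjusted p = 0.00128).

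Over the female day all 3 had their highest mean at ZT12. AGAP005834-RA averaged 35.0 ± 4.4 at ZT0, 71.4 ± 4.1 at ZT4, 107 ± 51 at ZT8, 706 ± 291 at ZT12, 108 ± 7.6 at ZT16 and 59.7 ± 13.2 normalised counts at ZT20 (SD, n = 3 each). The ZT16 libraries lay within the range of those at ZT8, so the level stood apart at ZT12. AGAP028406-RA averaged 522 ± 222 at ZT0, 1006 ± 507 at ZT4, 3118 ± 1197 at ZT8, 8300 ± 2165 at ZT12, 1144 ± 200.5 at ZT16 and 1076 ± 299 at ZT20. Its ZT8 libraries were already above all ZT16 libraries. AGAP001235-RB was also high at ZT8, with 388 to 916 normalised counts, and low again at ZT20, with 37.2 to 82.2. These courses share the ZT12 libraries with the comparison and are given as a description.

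**Figure D2:**
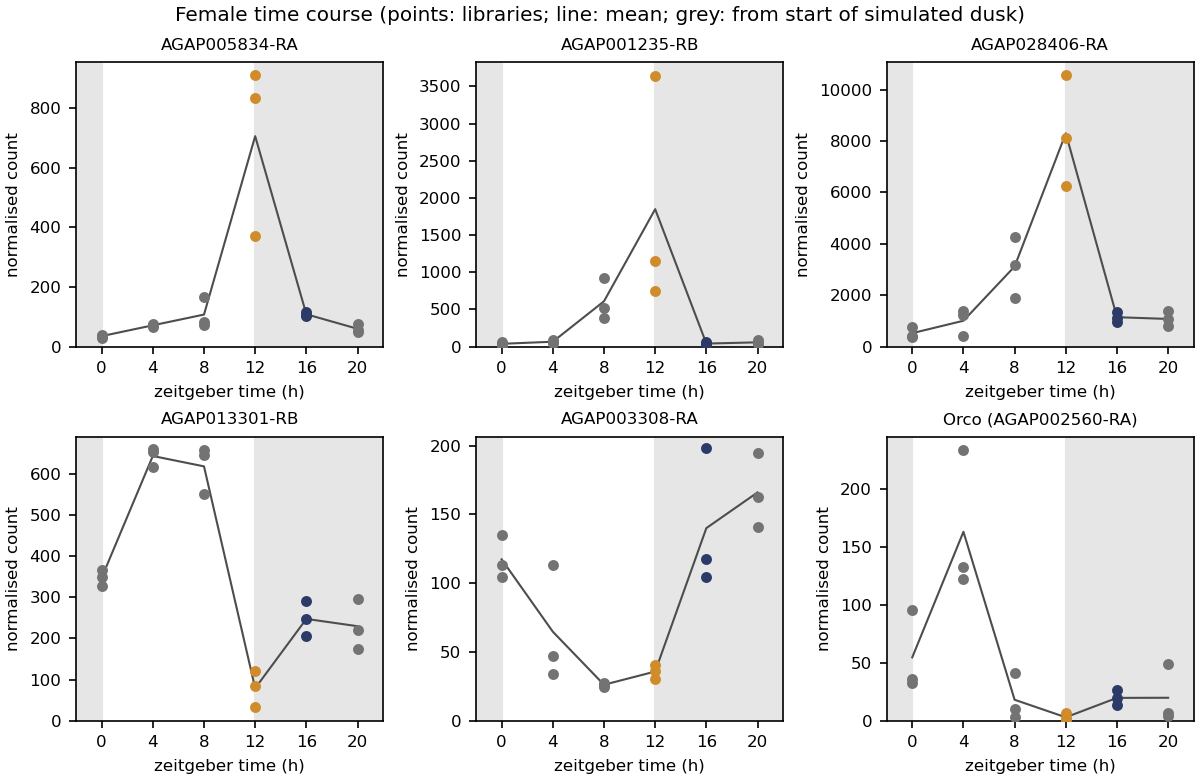
Normalised counts of 6 transcripts in all 18 female libraries (points) and their means (line) over zeitgeber time in hours, with ZT12 in orange, ZT16 in blue and the time from the start of dusk shaded. AGAP005834-RA, AGAP001235-RB and AGAP028406-RA have their highest means at ZT12, while AGAP013301-RB and Orco have their lowest means there.

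Among transcripts that were higher at ZT16, the smallest p-values belonged to AGAP013301-RB and AGAP003308-RA, which the sources also leave without a name. AGAP013301-RB had 205, 246 and 290 normalised counts at ZT16, against 33.6, 121 and 83.4 at ZT12. The groups did not overlap, but the difference did not pass the adjusted threshold (log2 fold change 1.65, 95% interval 0.95 to 2.35, edgeR adjusted p = 0.149). The other transcripts of this gene were not higher in the same way. AGAP013301-RA had 1214, 911 and 804 at ZT16 and 682, 770 and 833 at ZT12, with overlap. AGAP013301-RC had 336, 453 and 413 at ZT16 and 474, 569 and 527 at ZT12, where every ZT16 library was below every ZT12 library (log2 fold change -0.39, edgeR adjusted p = 0.834). With the isoforms summed, the log2 fold change was 0.25 (adjusted p = 0.779).

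AGAP003308-RA had 118, 198 and 105 normalised counts at ZT16, against 36.4, 40.6 and 30.5 at ZT12. The groups were well separated (log2 fold change 1.97, 95% interval 1.13 to 2.81, edgeR adjusted p = 0.149). AGAP003308-RB, its second transcript, had 80.4, 92.6 and 110.1 at ZT16, against 2.73, 9.84 and 9.68 at ZT12 (log2 fold change 3.65, 95% interval 1.84 to 5.47, edgeR adjusted p = 0.253). Both transcripts were thus higher in every ZT16 library without passing alone, and the sum over the gene did pass (log2 fold change 2.44, edgeR adjusted p = 0.0420). DESeq2's Wald test called AGAP003308-RA (adjusted p = 0.00112) and AGAP013301-RB (adjusted p = 3.34e-04).

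**Figure D3:**
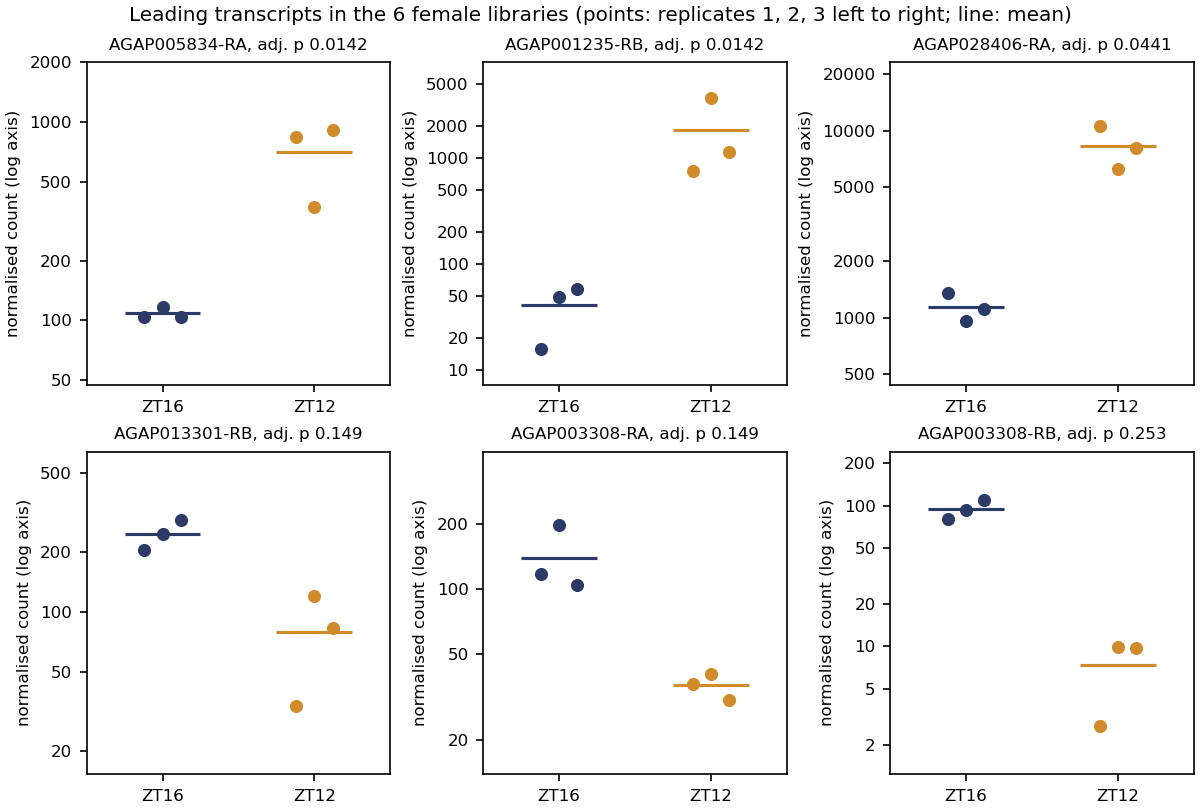
Normalised counts (log axis) of 6 transcripts in the ZT16 (left) and ZT12 (right) libraries, with 1 point per replicate, a line at the mean and edgeR's adjusted p above each panel. The upper 3 transcripts were lower at ZT16 and passed the threshold, and the lower 3 were higher in every ZT16 library without passing it.

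Opsins are the visual pigments of photoreceptor cells. The study counted them among the receptors expressed in the JO and cited auditory and mechanosensory roles of rhodopsins in Drosophila. Whether their counts here came from retina or from the JO was not tested. Markers of chordotonal neurons, muscle, glia and fat body could not be looked up, since the identifiers are not paired with names outside the study's receptor lists. The 10 opsin transcripts of the study's table held 16.4%, 26.6% and 31.4% of all counts in the ZT16 libraries and 9.37%, 40.7% and 13.6% in the ZT12 libraries. ZT12 replicate 2 was thus the highest and the other ZT12 libraries the lowest of the 6, and the time points overlapped (exact two-sided permutation test of log2 shares, p = 0.6, where 3 against 3 allows no p below 0.1). Total estimated counts were 13747682 to 17815875 per library. In pools of tissue, fewer cells of a type and less RNA per cell cannot be told apart.

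Of the 10 opsin transcripts, 6 had the library order of this share, lowest in replicate 1 and highest in replicate 3 at ZT16 and highest in replicate 2 at ZT12. The share is the sum of these same transcripts, so this agreement is partly built in for the most abundant of them. AGAP013149-RA, which the study matched to ninaE/Rh2/Rh6 of Drosophila, had 1024750, 1891950 and 2278840 normalised counts at ZT16, against 564352, 3771900 and 700677 at ZT12. The ZT12 libraries lay on both sides of the ZT16 range (log2 fold change 0.04, 95% interval -1.47 to 1.56). Of the 10 opsin transcripts tested, 0 were called and 7 had a negative log2 fold change (70%, against 49.0% of all tested), with a median of -0.23. Rh5 had 53187, 51978 and 85328 at ZT16 and 11119, 100569 and 25241 at ZT12, again with ZT12 replicate 2 highest. Rh7, an opsin that in Drosophila is found in brain neurons as well as in the eye, had isoforms with values of opposite sign, whose difference was not tested. AGAP007548-RA had 84.5, 98.2 and 63.0 at ZT16, against 54.5, 30.7 and 34.2 at ZT12, without overlap (log2 fold change 1.04, 95% interval -0.13 to 2.199, edgeR adjusted p = 0.738). AGAP007548-RB had 91.1, 68.1 and 131.7 at ZT16 and 63.6, 214 and 97.5 at ZT12, and its groups overlapped.

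CRY1, the light-sensitive cryptochrome of the insect clock, had 1331, 1557 and 1842 normalised counts at ZT16, against 1508, 1916 and 1741 at ZT12. The 6 libraries formed a single range, and the interval of the difference was narrow (log2 fold change -0.13, 95% interval -0.52 to 0.26, edgeR adjusted p = 0.901). ShakB, a gap junction protein of the innexin family that joins neurons electrically in Drosophila, had 464, 253 and 225 for AGAP001487-RB at ZT16 and 169, 138 and 266 at ZT12, with overlap (log2 fold change 0.71, edgeR adjusted p = 0.749).

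The study's receptor lists, which it drew up from transcripts expressed in these same libraries and those of males, held 172 transcripts of 151 genes, of which 170 were tested here. None of the 170 was called by edgeR (against 0.0243% of all tested), and 3 had an unadjusted p under 0.05 (1.76%, against 6.84% of all tested). DESeq2's Wald test and every other alternative fit also called 0 of them. No listed transcript was lower in all ZT16 than in all ZT12 libraries (0%, against 9.45%), and 11 were higher in all (6.47%, against 7.06%). The log2 fold change was positive in 127 (74.7%, against 51.0% of all tested), with a median of 0.32 against 0.01.

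Single libraries moved these values. The median of the listed transcripts was 0.29, 0.39 and 0.16 without ZT16 replicate 1, 2 or 3. It was 0.18, 0.64 and 0.24 without ZT12 replicate 1, 2 or 3. With the opsin share as a covariate, 115 of the 170 had a positive value and the median was 0.28. The listed transcripts were also less precisely measured than transcripts at large. Their median SD of log2 counts was 0.55 at ZT16 and 0.75 at ZT12, against 0.33 and 0.37 over all tested transcripts. The 95% interval of the log2 fold change lay within -1 to 1 in 19 of the 170 (11.2%, against 42.5% of all tested), so for the others a difference of 2-fold could not be set aside.

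**Figure D4:**
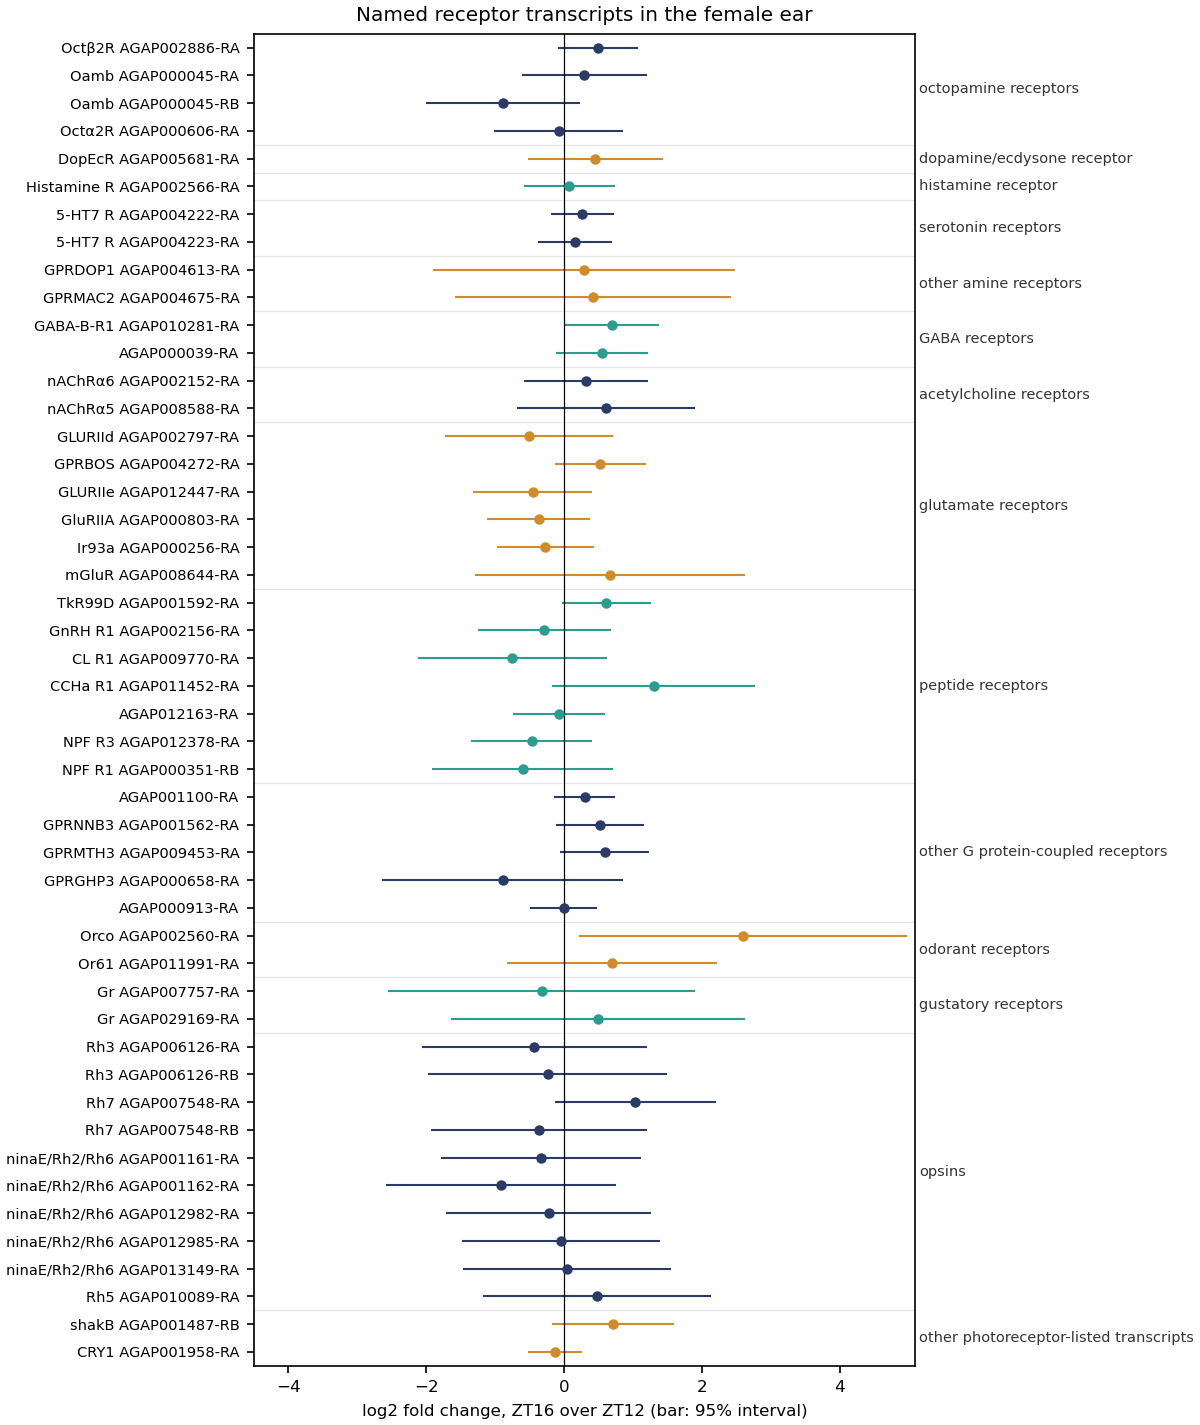
Log2 fold change of ZT16 over ZT12 with its 95% interval for 48 named receptor transcripts, grouped by family. No transcript passed the adjusted threshold, and only the intervals of Orco and GABA-B-R1 leave out 0.

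Octopamine, the insect counterpart of noradrenaline, acts through α- and β-adrenergic-like receptors and is released in the mosquito ear. Octβ2R, a β-adrenergic-like receptor that raises cyclic AMP, had 1045, 859 and 907 normalised counts at ZT16, against 612, 574 and 818 at ZT12. Every ZT16 library was above every ZT12 library, though the closest values, 859 and 818, were near each other (log2 fold change 0.49, 95% interval -0.09 to 1.07, edgeR adjusted p = 0.744). Oamb, the α-adrenergic-like receptor that acts through calcium, was split between isoforms with values of opposite sign. AGAP000045-RA had 134, 145 and 120 at ZT16 and 74.5, 101 and 149 at ZT12 (log2 fold change 0.30, 95% interval -0.61 to 1.20). AGAP000045-RB had 32.3, 63.3 and 79.8 at ZT16 and 65.4, 111 and 148 at ZT12 (log2 fold change -0.89, 95% interval -1.997 to 0.23). Both overlapped between time points, and the difference between the isoforms was not tested. Octα2R had 471, 406 and 490 at ZT16 and 409, 603 and 430 at ZT12, with a log2 fold change of -0.08. The 3 Octβ3R transcripts ranged from 0.23 to 1.21 in log2 fold change, and none of the 7 octopamine receptor transcripts was called.

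None of the other amine receptors was called. DopEcR, which in Drosophila responds to dopamine and to ecdysteroid hormones, had 4747, 2620 and 2776 normalised counts at ZT16 and 2435, 2019 and 2946 at ZT12. ZT16 replicate 1 stood alone above the rest (log2 fold change 0.45, 95% interval -0.53 to 1.44, edgeR adjusted p = 0.866). The histamine receptor had 932, 873 and 760 at ZT16 and 533, 861 and 1040.1 at ZT12 (log2 fold change 0.08). All 6 serotonin receptor transcripts had positive values between 0.08 and 0.77 (100%, against 51.0% of all tested), and 0 were called. The 5-HT7 receptor AGAP004222-RA had 582, 470.3 and 566 at ZT16 and 349.9, 492 and 506 at ZT12, with the narrowest interval of the family, -0.19 to 0.72. GPRDOP1, a dopamine receptor, had 164, 262 and 237 for AGAP004613-RA at ZT16 and 344, 123 and 73.7 at ZT12, with overlap. Its transcript AGAP004613-RB was more scattered, with 238, 5.54 and 156 at ZT16 and 0, 203 and 170 at ZT12.

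GABA receptors carry the main inhibitory signal of the insect nervous system, as chloride channels or through G proteins. Of 11 tested transcripts 0 were called, 10 had a positive value (90.9%, against 51.0% of all tested) and 3 were higher in all ZT16 libraries (27.3%, against 7.06% of all tested). GABA-B-R1, a subunit of the G protein-coupled GABA-B receptor, had 795, 720 and 894 normalised counts at ZT16, against 402, 679 and 408 at ZT12. The groups did not overlap, with ZT12 replicate 2 nearest to the ZT16 range (log2 fold change 0.70, 95% interval 0.02 to 1.38, edgeR adjusted p = 0.719). Its partner GABA-B-R2 had 363, 414 and 336 at ZT16, against 194, 288 and 319 at ZT12 (log2 fold change 0.47, 95% interval -0.36 to 1.30). Rdl, the GABA-gated chloride channel, had 356, 378 and 371 for AGAP006028-RB at ZT16, against 116, 343 and 248 at ZT12 (log2 fold change 0.65, 95% interval -0.45 to 1.74). Its transcript AGAP006028-RC had 418, 302 and 273 at ZT16 and 216, 210 and 377 at ZT12, with overlap (log2 fold change 0.30, 95% interval -0.80 to 1.41).

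Acetylcholine is the main excitatory transmitter of insect sensory neurons, and its nicotinic receptors are cation channels. Of 12 transcripts 0 were called and 11 had a positive value (91.7%, against 51.0% of all tested and 74.7% of all listed). The median log2 fold change of the 12 was 0.63. The libraries of all 12 overlapped, where 7.06% of all tested transcripts were higher and 9.45% lower without overlap. NAChRα6 had 1050.4, 999.9 and 817 normalised counts at ZT16 and 661, 871 and 768 at ZT12. NAChRα, in contrast, spread widely, with 115, 226 and 461 at ZT16 and 148, 464 and 81.2 at ZT12. In 7 of the 12 the libraries had the order of the opsin share described above.

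This order was also found in 8 of 22 glutamate, 3 of 11 GABA and 8 of 32 peptide receptor transcripts. It was found in 14 of 45 other G protein-coupled receptors and 1 of 6 serotonin receptors. Among the 8 amine receptor transcripts outside the octopamine, serotonin, histamine and dopamine/ecdysone receptors it was found in 4. Over the listed transcripts other than opsins it was found in 46 of 160 (28.8%), against 12.7% of all tested transcripts. The AMPA-type subunit GluRIA had 167, 390.3 and 731 normalised counts at ZT16 and 173, 512 and 90.8 at ZT12. GABA-A R had 155, 238 and 490 at ZT16 and 128, 612 and 74.5 at ZT12. In both, the spread within a time point exceeded the difference between time points. The order was found in 0 of 7 octopamine, 0 of 7 gustatory and 0 of 2 odorant receptor transcripts. With so few transcripts and 12.7% over all tested, a count of 0 sets none of these families apart. With the opsin share as a covariate, 0 of the 170 were called.

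**Figure D5:**
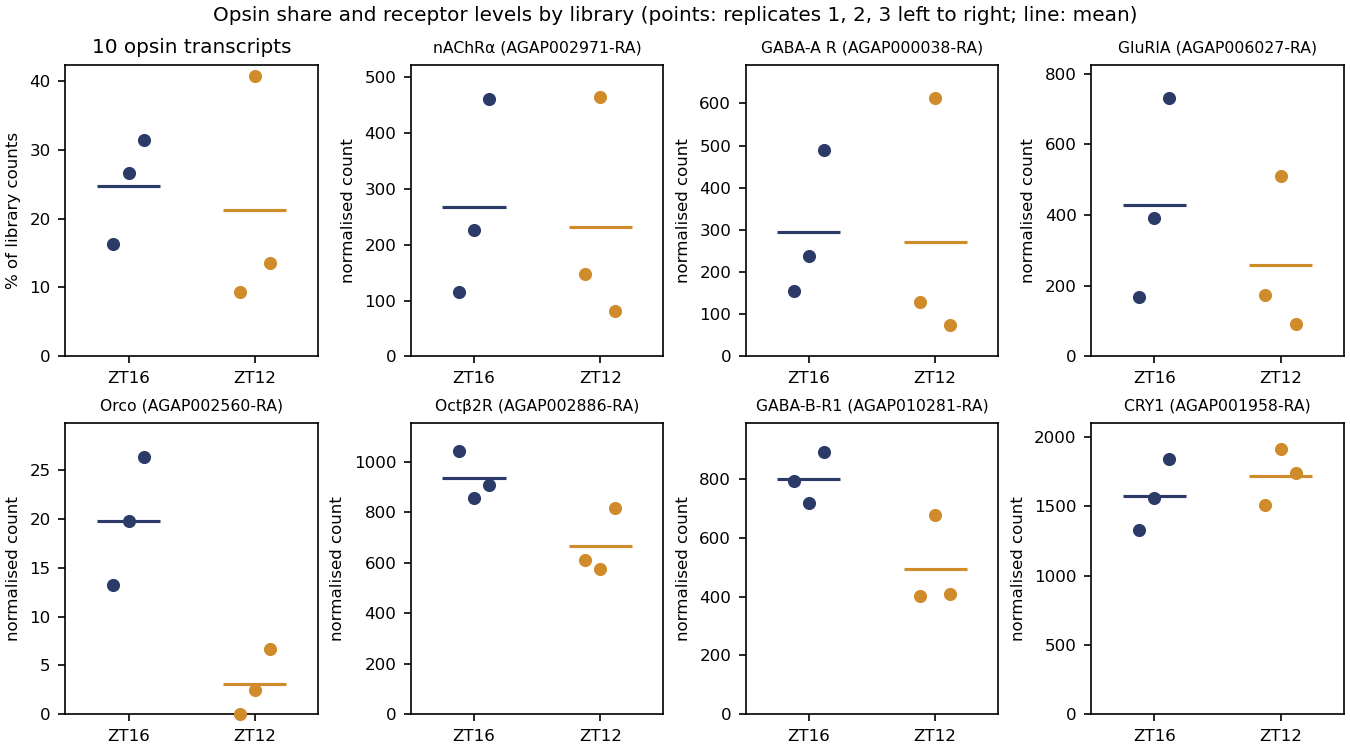
Opsin share of all counts in percent (first panel) and normalised counts of 7 receptors in the ZT16 (left) and ZT12 (right) libraries, with 1 point per replicate and a line at the mean. NAChRα, GABA-A R and GluRIA are highest in ZT12 replicate 2 among the ZT12 libraries, as the opsin share is, while Orco, Octβ2R and GABA-B-R1 do not overlap between time points.

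Glutamate receptors serve synapses between neurons and, in insects, the junction between motor neuron and muscle. Of 22 transcripts 0 were called, 13 had a positive value (59.1%, against 51.0% of all tested) and 9 a negative one. GluRIIA, a subunit of the muscle-type receptor in Drosophila, had 474, 272 and 227 normalised counts at ZT16 and 472, 319.7 and 463 at ZT12. ZT16 replicate 1 matched the highest ZT12 library, so the groups overlapped (log2 fold change -0.37, 95% interval -1.12 to 0.38, edgeR adjusted p = 0.856). Its relatives GLURIId and GLURIIe also had negative values, -0.51 and -0.46, and neither was called. The obligate NMDA receptor subunit NMDAR1 had 449, 332 and 569.7 at ZT16 and 258, 396 and 307 at ZT12 (log2 fold change 0.49, 95% interval -0.30 to 1.28). Ir93a, a co-receptor for temperature and humidity sensing in Drosophila, had 174, 469 and 306 at ZT16 and 271, 437 and 438 at ZT12, with overlap.

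Peptide receptors carry the signals of neurohormones and co-transmitters. Of 32 transcripts 0 were called and 24 had a positive value (75%, against 51.0% of all tested). TkR99D, a tachykinin receptor, had 124, 150 and 184 normalised counts at ZT16, against 61.8, 122 and 116 at ZT12. Its log2 fold change was 0.61 (95% interval -0.04 to 1.26, edgeR adjusted p = 0.719). It was the only peptide receptor higher in all ZT16 libraries (3.1%, against 7.06% of all tested), and none was lower in all (0%, against 9.45%). CCHa R1, a receptor for the peptide CCHamide, had the highest value of the family at 1.30, from 53.02, 38.8 and 78.2 at ZT16 and 7.27, 46.7 and 15.6 at ZT12. One ZT12 library lay within the ZT16 range and the interval was wide, -0.17 to 2.77. CL R1 had the lowest, -0.75, from 481, 163 and 214 at ZT16 and 1015, 273 and 154 at ZT12, where a single ZT12 library set the difference. Without that library, ZT12 replicate 1, its log2 fold change was 0.42. The receptor of allatostatin A, AGAP010486-RA, had 471, 394 and 349 at ZT16 and 224, 304 and 404 at ZT12 (log2 fold change 0.38, 95% interval -0.14 to 0.91).

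Among the 45 other G protein-coupled receptors 0 were called, 34 had a positive value (75.6%, against 51.0% of all tested) and 4 were higher in all ZT16 libraries. The 4 make 8.89% of the group, near the 7.06% of all tested transcripts. AGAP001100-RA, listed without a name, had the narrowest interval of these 4, from 1346, 1289.6 and 1242 normalised counts at ZT16, against 1144, 1161 and 844 at ZT12 (log2 fold change 0.30, 95% interval -0.14 to 0.74). GPRMTH3, of the Methuselah family, had 529, 382 and 368 at ZT16, against 196, 287 and 368 at ZT12, where the nearest values were almost equal. GPRNNB3 had 508, 563 and 616 at ZT16, against 284, 456 and 436 at ZT12 (log2 fold change 0.52, 95% interval -0.12 to 1.16).

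Orco, the co-receptor that odorant receptors need to reach the neuron's surface, had 13.3, 19.8 and 26.3 normalised counts at ZT16, against 0, 2.46 and 6.70 at ZT12. The estimated counts behind these values were 16, 25 and 33 at ZT16 and 0, 2 and 9 at ZT12. The groups did not overlap and the fitted log2 fold change was 2.60, but with so few counts its interval ran from 0.22 to 4.98 and it was not called (edgeR unadjusted p = 0.0343, adjusted p = 0.694). Over the female day Orco averaged 54.7 ± 35.4 normalised counts at ZT0, 163 ± 61 at ZT4 and 18.2 ± 20.4 at ZT8 (SD, n = 3 each). It averaged 3.05 ± 3.4 at ZT12, 19.8 ± 6.5 at ZT16 and 19.9 ± 25.1 at ZT20. The ZT16 mean was thus level with those of ZT8 and ZT20, and the ZT12 mean was the lowest. The study reported cyclic expression of Orco in females. Or61, an odorant receptor, had 98.6, 57.8 and 25.5 at ZT16 and 26.4, 24.6 and 61.1 at ZT12, with overlap. The 7 gustatory receptor transcripts had log2 fold changes between -0.32 and 1.04, and 0 were called.

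The same comparison in males, with 3 libraries at ZT16 and 2 at ZT12 after the library that the study discarded was left out, called 0 of 12898 transcripts (0%, 703 at an unadjusted p under 0.05). AGAP001235-RB and AGAP005834-RA had male log2 fold changes of -3.27 ± 0.70 and -2.57 ± 0.57 (SE), and AGAP028406-RA one of -0.91 ± 0.65. The change in females minus that in males was tested in a model of both sexes and called 0 transcripts (0%), with 790 at an unadjusted p under 0.05 and 62 calls by DESeq2. For the 3 transcripts that fell in females this difference was -2.25 ± 0.95 for AGAP001235-RB, -0.16 ± 0.79 for AGAP005834-RA and -1.97 ± 0.89 for AGAP028406-RA (SE, edgeR adjusted p = 0.73, 0.989 and 0.769). Octβ2R had log2 fold changes of 0.49 in females and -0.64 in males, and the difference of 1.1 ± 0.38 (SE) did not pass the adjusted threshold (edgeR adjusted p = 0.648). Such a difference was not particular to Octβ2R. The allatostatin A receptor AGAP010486-RA had 0.91 ± 0.32, and GLURIId had one of opposite sign, -1.36 ± 0.81 (SE, edgeR adjusted p = 0.659 and 0.860).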

How the data were processed

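The authors sequenced SMART-Seq v4 and Nextera XT libraries, checked reads with FastQC 0.11.9 and MultiQC 1.10, and deposited estimated counts per transcript from Kallisto 0.46.0 against VectorBase release 53, without normalization. No molecular identifiers are named for these libraries, and Kallisto's strand setting is not given in the sources used here. All columns were matched to samples.

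Estimated counts were rounded. edgeR 4.0.16 (R 4.3.3) fitted the 18 female libraries in 6 time groups (filterByExpr with its minimum count of 10, TMM, glmQLFit, glmQLFTest), and the contrast was ZT16 minus ZT12 with Benjamini-Hochberg adjustment over 12322 transcripts and a threshold of 0.05. Standard errors were taken as the size of the log2 fold change over the root of the F statistic, with 95% intervals from the fit's t distribution. Normalised counts are counts divided by effective library size (total times TMM factor) times its geometric mean. The male comparison used 35 libraries. Totals were 9341559 to 17815875 in female libraries. Within each of the 2 time points no library was a copy of another, since pairs differed by a chi-square of 59.8 to 573 per degree of freedom. Pairs across time points and the other libraries were not compared in this way. The script was tested on simulated data.

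Alternatives were other scalings and filters, DESeq2 1.42.0, the 6 libraries alone, isoforms summed, the opsin share as covariate, a replicate block and leaving out each library. Names and receptor lists came from the study's tables. Of the gene identifiers, 0 matched the RefSeq table, so no coordinates, sequences or further marker lists were used. Members and lists were chosen with earlier results of these data known. Named were called transcripts, the smallest p-values in each direction among named genes (10 each), the 2 with the highest counts per family, and Orco, GluRIIA, Oamb, Octβ2R, DopEcR, CRY1 and the opsins (48 listed transcripts). Unnamed ones were limited to 2 per direction, and AGAP005834-RA was added after its values were seen because 3 were called. Other receptors and isoforms in the text were also chosen after their values were seen.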

Additional observations from a re-analysis of the deposited data

How the results depend on the processing

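The count of 3 lower and 0 higher transcripts (3 in all) was kept with DESeq2 size factors and with no filter on low counts, and became 4 lower with a mean of at least 50 counts. In these fits all 3 calls were shared. Total counts alone left 1 lower (1 in all), and the 6 libraries alone left 0. Isoforms summed per gene gave 5 lower and 1 higher (6 in all), and the opsin covariate gave 5 lower (5 in all), of which 2 were shared. DESeq2's Wald test gave 61 lower and 17 higher (78 in all), and on the 6 libraries alone, chosen after seeing the data, 120 lower and 31 higher (151 in all). Each of these 2 sets held all 3 calls. With the replicate number as a block, 1 transcript was called as lower (1 in all). Deviations of same-numbered libraries from their time point's mean correlated at 0.25, -0.02 and -0.22 across 10506 transcripts. The largest correlation, 0.46, joined ZT16 replicate 3 and ZT12 replicate 2, the libraries with the highest opsin share. Such deviations also carry differences in opsin share, so they cannot decide whether the numbers pair the samples.

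Leaving out 1 library gave 0 to 2 lower calls, 0 higher and 0 to 2 in all. The count was 0 without ZT16 replicate 1 or 2, 2 without ZT12 replicate 2 and 1 without each of the others, and the call without ZT16 replicate 3 was none of the 3. The female minus male difference had 0 calls in all edgeR alternatives and 62 in DESeq2's.

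Of 844 alternative values of single transcripts, 774 kept direction and side of the threshold. AGAP005834-RA lost its call with total counts (adjusted p = 0.123) and the 6 libraries (0.198), AGAP001235-RB with the 6 libraries (0.216) and the block (0.0748), and AGAP028406-RA with total counts (0.0838), the 6 libraries (0.126), the opsin covariate (0.0533) and the block (0.0961). The following reversals were all of values that did not pass the test. With total counts alone, log2 fold changes became 0.042 for AGAP000913-RA, 0.020 for AGAP000606-RA, 0.063 for AGAP006126-RB, 0.023 for AGAP012982-RA and 0.21 for AGAP012985-RA. With isoforms summed they became -0.18 for Oamb and 0.12 for Rh7, and with the opsin covariate 0.11 for AGAP012163-RA, -0.18 for AGAP013149-RA and 0.88 for AGAP007757-RA. With the replicate block they became 0.020 for AGAP012982-RA and 0.18 for AGAP012985-RA, and the block changed no other direction. Leaving out 1 library gave log2 fold changes of -0.78 to 0.16 for AGAP012447-RA, -0.67 to 0.023 for AGAP000256-RA, -0.12 to 1.94 for AGAP008644-RA, -1.35 to 0.42 for AGAP009770-RA, -0.11 to 0.15 for AGAP000913-RA, -0.15 to 0.30 for AGAP002566-RA, -0.18 to 0.10 for AGAP000606-RA, -0.52 to 0.15 for AGAP012163-RA, -1.12 to 0.041 for AGAP000351-RB, -1.09 to 1.27 for AGAP006126-RA, -0.86 to 1.61 for AGAP006126-RB, -0.68 to 0.25 for AGAP007548-RB, -0.80 to 0.55 for AGAP001161-RA, -1.71 to 0.59 for AGAP001162-RA, -0.63 to 1.03 for AGAP012982-RA, -0.42 to 1.15 for AGAP012985-RA, -0.37 to 1.43 for AGAP013149-RA, -0.081 to 1.17 for AGAP004613-RA, -1.44 to 1.37 for AGAP007757-RA and -1.38 to 0.98 for AGAP029169-RA. The causes of these changes were not tested. With 3 pools per time point, Orco, at 0 to 33 estimated counts per library, had an interval of 0.22 to 4.98.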
